A study of Mus musculus with 31 samples.

Results

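The 9 genes described here carry anions, bicarbonate, protons and water across the lining of the colon: Slc26a3, Slc9a2, Slc9a3, Aqp8, Car1, Car2, Car4, Cftr and Slc12a2. They were chosen by name from 18820 genes with a probe set of their own, and each was read from its one-symbol probe set with the highest mean over the 31 arrays. All 9 had 1 such probe set, and all 9 were among the 12795 genes bright enough to test. RNA came from scrapings of the colonic epithelium of male C57Bl/6J mice, 13 weeks old, and was measured on single-colour whole-transcript arrays. Every mouse had first eaten standard chow for 2 weeks and then a semi-synthetic diet with palm oil as its fat, either a high-fat diet (HFD, 45% of energy from fat) or a low-fat diet (LFD, 10%). After 2 weeks on that diet the mice were lightly sedated on 6 days in a row and received 80 µL through the rectum, 3 cm deep, at pH 6.5 and isotonic. The infusate was saline with 100 mM sodium acetate, sodium propionate or sodium butyrate, or saline alone, and the colon was taken 4 h after the last infusion. This gave 8 groups: acetate HFD, propionate HFD, butyrate HFD, saline HFD, acetate LFD, propionate LFD, butyrate LFD and saline LFD. Each had 4 arrays (n = 4), except acetate LFD with 3 (n = 3). Since the labels count 6 mice to a group without tying arrays to mice, p-values measure the spread between these samples. Both diets derive from commercial formulas whose fat and carbohydrates the submitters altered, so fat and the energy source it replaces cannot be told apart.

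In the colon, sodium chloride is absorbed at the surface by pairs of exchangers that work side by side: one takes up sodium for a proton, the other takes up chloride for bicarbonate, and water follows. Carbonic anhydrases supply both partners by turning carbon dioxide and water into protons and bicarbonate. Secretion runs the other way and mainly in the crypts, where chloride enters the cell from the blood side with sodium and potassium and leaves into the lumen through a chloride channel. Bacterial fermentation of fibre fills the lumen with short-chain fatty acids, of which acetate has the shortest carbon chain and butyrate the longest of those infused. Their uptake is linked to bicarbonate secretion and stimulates sodium absorption. Among the absorptive genes, Slc26a3 encodes the chloride/bicarbonate exchanger of the apical membrane, whose loss in people causes congenital chloride diarrhoea. Slc9a2 and Slc9a3 encode apical sodium/proton exchangers, and Aqp8 encodes an aquaporin of the surface epithelium. Car1 and Car2 encode carbonic anhydrases of the cytosol and Car4 one anchored to the outer face of the membrane. For secretion, Slc12a2 encodes the basolateral cotransporter of sodium, potassium and chloride, and Cftr the apical chloride channel that is defective in cystic fibrosis. In the RefSeq annotation of GRCm38.p6, Slc9a2 spans chr1:40681712-40768885, Slc9a3 chr13:74086255-74169442 and Aqp8 chr7:123462294-123468003. Car1 spans chr3:14766214-14808365, its neighbour Car2 chr3:14886269-14900770 and Car4 chr11:84957754-84966054, and Cftr spans chr6:18170687-18322770.

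The RefSeq promoter table of the mouse (GRCm38.p6) holds a start site for 5 of the 9 genes. The 250 bases before the start are shown for Slc26a3, Aqp8 and Car4, because these 3 genes varied together from array to array, and for Cftr, because it varied with the other secretory gene, Slc12a2. Capitals mark the motif matches found by searching both strands. All 4 lie on the + strand. The Slc26a3 start used by the table lies inside the span annotated for the gene, chr12:31433142-31473922.
Slc26a3, chr12:31437969-31438218: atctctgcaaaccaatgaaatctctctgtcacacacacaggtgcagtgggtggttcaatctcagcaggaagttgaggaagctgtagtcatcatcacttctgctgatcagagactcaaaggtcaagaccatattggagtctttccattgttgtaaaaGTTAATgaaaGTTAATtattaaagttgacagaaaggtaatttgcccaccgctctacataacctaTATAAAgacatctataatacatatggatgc
Aqp8, chr7:123462044-123462293: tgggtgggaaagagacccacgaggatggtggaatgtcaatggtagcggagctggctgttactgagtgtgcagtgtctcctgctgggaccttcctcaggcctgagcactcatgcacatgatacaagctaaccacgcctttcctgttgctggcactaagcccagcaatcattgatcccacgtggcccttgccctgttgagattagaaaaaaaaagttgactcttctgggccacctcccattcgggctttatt
Car4, chr11:84957504-84957753: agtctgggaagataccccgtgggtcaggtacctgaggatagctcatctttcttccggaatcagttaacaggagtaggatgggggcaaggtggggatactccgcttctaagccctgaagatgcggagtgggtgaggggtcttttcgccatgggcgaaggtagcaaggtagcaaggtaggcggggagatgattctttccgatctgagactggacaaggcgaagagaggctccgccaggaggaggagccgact
Cftr, chr6:18170437-18170686: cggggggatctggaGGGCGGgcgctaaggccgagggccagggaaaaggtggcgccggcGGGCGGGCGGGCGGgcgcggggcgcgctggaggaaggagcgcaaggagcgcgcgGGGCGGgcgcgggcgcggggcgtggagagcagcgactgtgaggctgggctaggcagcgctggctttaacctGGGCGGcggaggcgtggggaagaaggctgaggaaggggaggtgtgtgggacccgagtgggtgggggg

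The upstream sequences of the co-varying genes were unlike one another. GC content was 38.8% for Slc26a3 with 1 CpG dinucleotide, 52.4% for Aqp8 with 5, and 56.4% for Car4 with 11. Cftr reached 76.4% with 30 CpG dinucleotides. Over all 32851 promoters of the table the median was 52.4% and 6. Searches on both strands covered the TATA box, the GC box and sites of the intestinal or epithelial factors CDX, HNF4 and HNF1. For the TATA box, spelled TATAAA, Slc26a3 had a match at positions -30 to -25, counted back from the start, a motif found in 12.37% of all promoters. It also held the HNF1 half-site GTTAAT at -94 to -89 and -84 to -79, found in 6.43%. That half-site was added after the Slc26a3 sequence had been read, and the full palindromic HNF1 site, searched first, matched none of the 5 members and 0.01% of all promoters. For the GC box, spelled GGGCGG, Cftr held 6 matches, 3 of which overlap one another, and Slc9a3, whose upstream sequence (chr13:74121163-74121412, + strand) had a GC content of 67.6%, held 3. GC boxes were found in 32.74% of all promoters. Aqp8 and Car4 matched none of the 6 searches, and the CDX motif TTTATG (10.76% of all promoters) matched none of the 5 genes. Nor did the HNF4 motif CAAAGTCCA (0.38%). A match here is a run of letters, not a shown binding site.

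The arrays were alike in scale, with log2 medians of 5.14 to 5.19, and within groups the correlation between arrays over the tested genes was 0.981 to 0.994. Of 9 markers of colonic epithelium, 8 had a probe set and all 8 were tested, from Cdx1 at a mean log2 level of 8.93 to Krt8 at 12.9. Markers of the small intestine (13 tested of 14) averaged 9.07 on propionate LFD 2, 8.94 on saline LFD 2, 8.67 on saline LFD 3 and 8.59 on saline HFD 2, and at most 7.30 on the other 27 arrays. Smooth muscle markers (8 tested of 10) averaged 7.10 on saline HFD 1 and 6.80 on saline HFD 2. Results were recomputed without these arrays. Adipocyte markers (4 tested of 6) were highest on butyrate LFD 2, at 6.41, and saline LFD 1, at 6.29. Butyrate LFD 2 was also the lowest array for Slc26a3, Aqp8 and Car4, and saline LFD 1 the highest for Slc9a2 and Car1. Hox markers of posterior position were lowest on acetate LFD 1, at 5.63, butyrate LFD 2, at 5.70, and saline LFD 1, at 5.75. Each array was also left out in turn, and the part of adipocytes or of position in these levels was not tested. Values are log2 levels after RMA, differences are in log2 units with the standard error (SE) of the fit, and array number limits precision. Probe sets differ in their response, so levels are compared within a gene only.

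None of the 9 genes passed the test in any comparison. In 20 comparisons, 180 tests in all, the smallest adjusted p from limma was 0.159, and the unadjusted p was under 0.05 in 2 tests. Across all tested genes limma called 2.70% in the comparison of HFD with LFD over all infusions, 6.87% in that under propionate, 0.0625% between butyrate and propionate on HFD, and 0 in each of the other 17. The share of variance between groups had a median of 16.8% over the 9 genes, against 26.5% over all tested genes and 23.3% where groups have no effect. Most of the variation was between arrays of the same group.

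**Figure D1:**
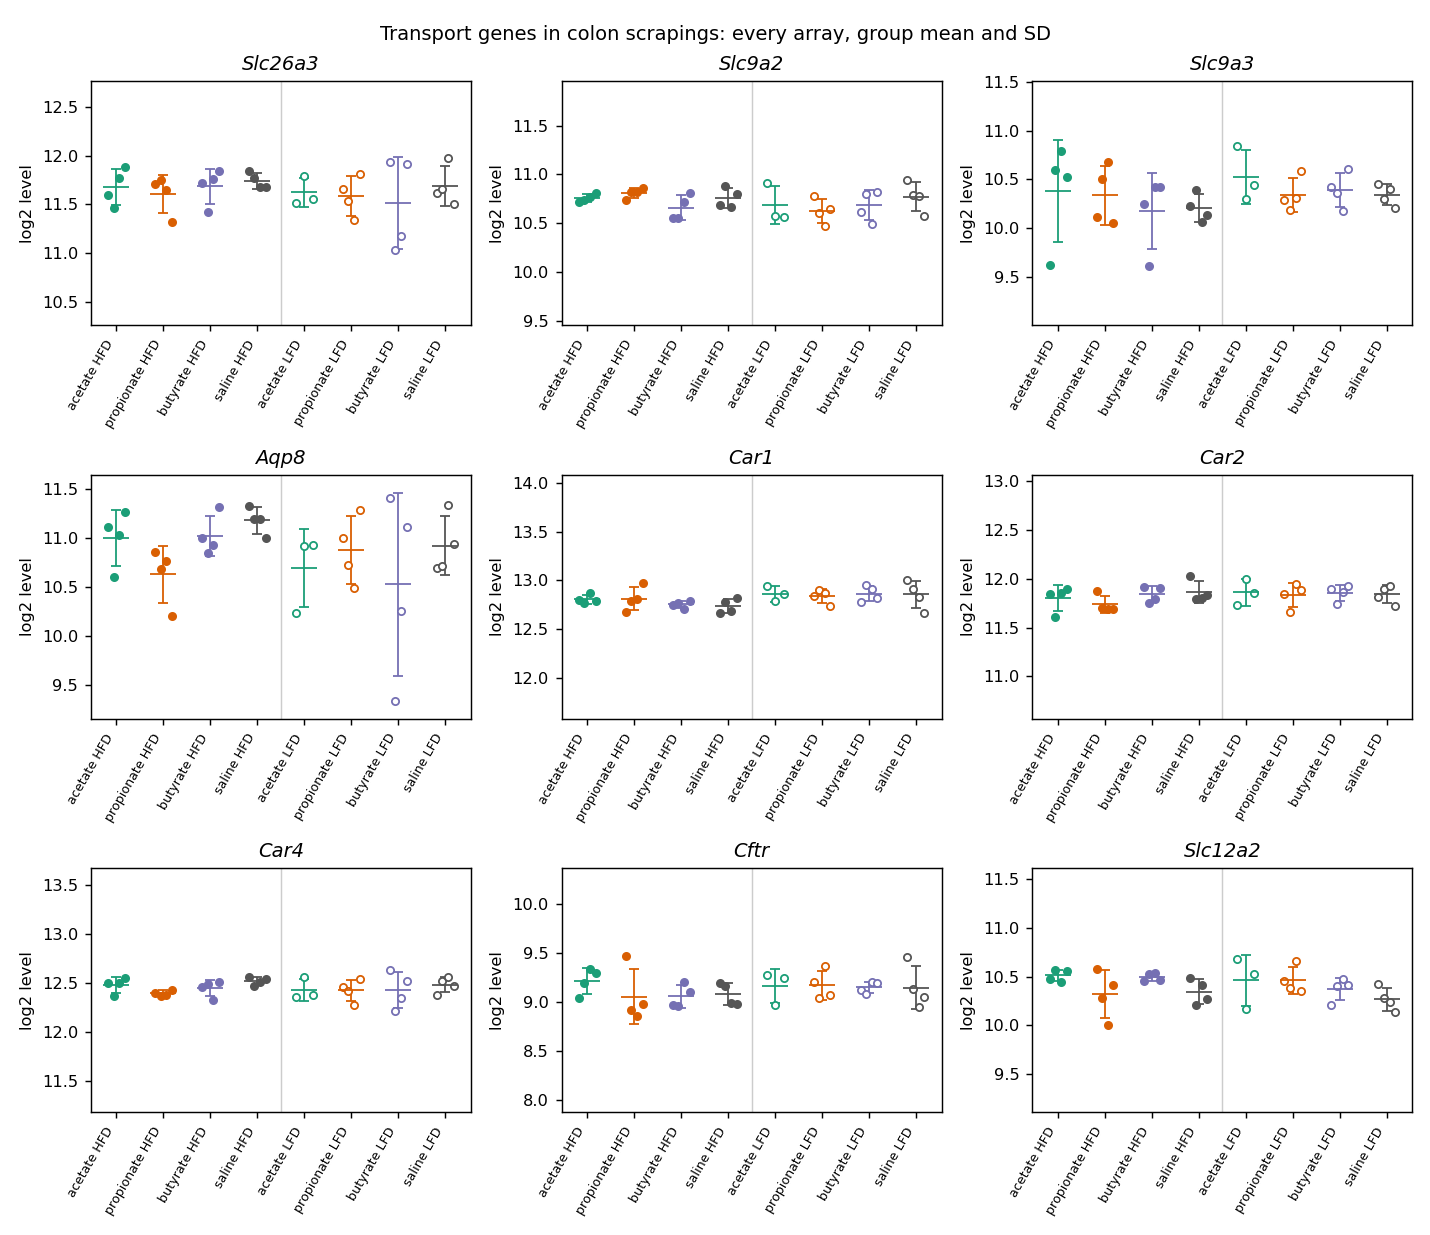
Log2 level of each of the 9 transport genes (vertical axes, each 2.5 log2 units high) in every array of the 8 groups (horizontal axis), with HFD as filled and LFD as open circles, horizontal bars for group means and whiskers for the SD. Aqp8, Slc26a3 and Slc9a3 spread widely within groups, Car1, Car2 and Car4 lie in narrow bands, and among the comparisons made only propionate and saline on HFD do not overlap, for Aqp8 and Car4.

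Slc26a3, the chloride/bicarbonate exchanger, had its highest group mean in saline HFD, 11.74 ± 0.083 (SD, n = 4), and its lowest in butyrate LFD, 11.51 ± 0.47 (SD, n = 4). Its range of group means, 0.23, was smaller than its pooled SD within groups, 0.24. The order of the 8 means was saline HFD, saline LFD, butyrate HFD, acetate HFD, acetate LFD, propionate HFD, propionate LFD and butyrate LFD, with no neighbours further apart than their spread. Butyrate LFD held both high and low arrays, at 11.93, 11.04, 11.18 and 11.91. The whole range over 31 arrays was 1.92-fold.

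The sodium/proton exchangers differed in how far their group means spread, by 0.18 for Slc9a2 and 0.35 for Slc9a3. Slc9a2 ranged from 10.63 ± 0.13 in propionate LFD to 10.81 ± 0.052 in propionate HFD (SD, n = 4 each), and from 10.47 to 10.94 over single arrays. Slc9a3 ranged from 10.18 ± 0.38 in butyrate HFD (SD, n = 4) to 10.53 ± 0.28 in acetate LFD (SD, n = 3). Its lowest arrays were butyrate HFD 2 at 9.61 and acetate HFD 1 at 9.62, each well below the rest of its own group, and its whole range was 2.34-fold.

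Aqp8, the water channel, varied most of the 9. Its levels were 11.12, 10.60, 11.03 and 11.27 in acetate HFD, 10.86, 10.68, 10.77 and 10.21 in propionate HFD, 11.00, 10.85, 10.93 and 11.31 in butyrate HFD, and 11.33, 11.19, 11.20 and 11.00 in saline HFD. On LFD they were 10.24, 10.92 and 10.93 in acetate, 11.00, 10.73, 10.49 and 11.29 in propionate, 11.41, 9.34, 10.25 and 11.11 in butyrate, and 10.69, 10.71, 11.34 and 10.94 in saline. The highest and the lowest array thus both belonged to butyrate LFD, 4.22-fold apart. The pooled SD within groups, 0.43, was larger than that of 98.1% of tested genes, whose median was 0.15. The group means ran from 11.18 ± 0.13 in saline HFD down to 10.53 ± 0.94 in butyrate LFD (SD, n = 4 each).

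The carbonic anhydrases varied little. Car1 spanned 0.34 log2 units over all arrays, from 12.67 in saline HFD 1 to 13.00 in saline LFD 1, with a pooled SD of 0.088. Car2 spanned 0.41, from 11.61 in acetate HFD 2 to 12.02 in saline HFD 1, and Car4 spanned 0.42, from 12.22 in butyrate LFD 2 to 12.64 in butyrate LFD 1. Car4 thus had its extremes on the same 2 arrays as Aqp8.

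Of the secretory pair, Slc12a2 had its highest group mean in acetate HFD, 10.51 ± 0.056, and its lowest in saline LFD, 10.27 ± 0.12 (SD, n = 4 each). Cftr had its highest in acetate HFD, 9.22 ± 0.13, and its lowest in propionate HFD, 9.06 ± 0.28 (SD, n = 4 each). Propionate HFD held the extremes of Cftr, 9.47 on array 1 and 8.86 on array 3, and array 3 was also the lowest for Slc12a2, at 10.00.

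The first comparison asked what each acid changed against saline on the same diet. None of the 54 tests passed, and none had an unadjusted p under 0.05 (limma), where between 1.51% and 11.7% of all tested genes had one and 0 of them were called. The 3 acids on a diet share their saline arrays, so their differences are not independent. The largest difference was that of Aqp8 with propionate on HFD, where the arrays had 10.86, 10.68, 10.77 and 10.21 under propionate, against 11.33, 11.19, 11.20 and 11.00 under saline. All 4 propionate arrays lay below all 4 saline arrays, a log2 difference of -0.55 ± 0.28 (SE, 95% interval -1.12 to 0.020, adjusted p = 0.45 with limma). Without saline HFD 1 and 2, the arrays high in smooth muscle markers, it was -0.47. Car4 was the only other member whose groups did not overlap in any comparison, again with propionate on HFD. It had 12.40, 12.36, 12.38 and 12.43 under propionate, against 12.57, 12.47, 12.51 and 12.55 under saline, a difference of -0.13 ± 0.071 (SE, adjusted p = 0.491 with limma). Of all tested genes, 2.96% lay below saline without overlap in this comparison and 1.75% above it. The median difference over the 9 members was -0.029, and over all tested genes -0.019.

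The other members gave intervals rather than calls. Slc26a3 differed from saline by -0.064, -0.13 and -0.057 under acetate, propionate and butyrate on HFD, and by -0.067, -0.11 and -0.18 on LFD, with SEs of 0.156 to 0.168. Without butyrate LFD 2, the difference under butyrate on LFD was -0.016 in Slc26a3, and in Aqp8 it was 0.0074 in place of -0.39. The 95% intervals left room for changes of up to 1.41-fold in Slc26a3, 1.25-fold in Slc9a2, 1.52-fold in Slc9a3 and 2.17-fold in Aqp8. They left less for the carbonic anhydrases, 1.15-fold in Car1 and 1.21-fold in Car2 and in Car4. For the secretory genes the limits were 1.29-fold in Cftr and 1.33-fold in Slc12a2. Slc12a2 differed from saline by 0.17, -0.026 and 0.15 under acetate, propionate and butyrate on HFD and by 0.19, 0.19 and 0.11 on LFD (SE 0.102 to 0.110).

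**Figure D2:**
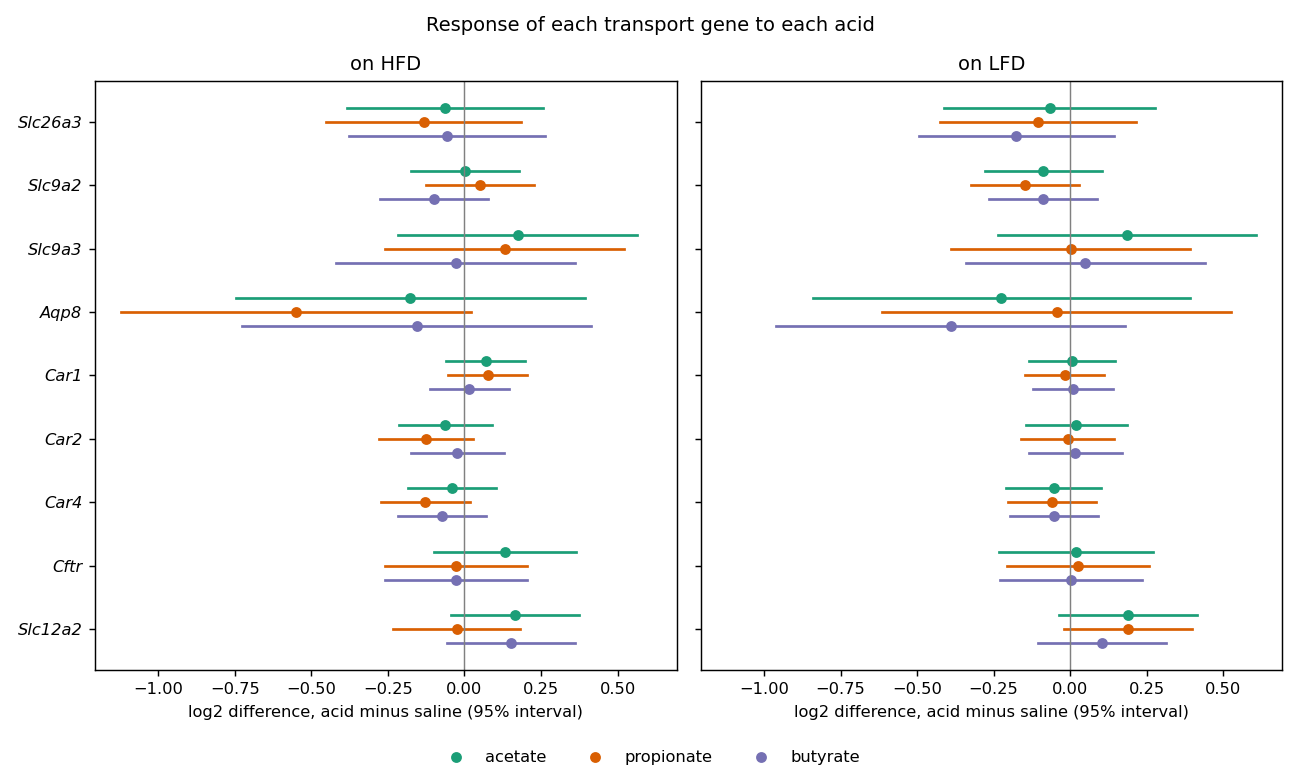
Log2 difference of each acid minus saline (horizontal axis) for the 9 genes (rows), on HFD (left) and LFD (right), with points for the difference and lines for its 95% interval from limma. All 54 intervals include 0, and those of Aqp8 are the widest, down to -1.12 for propionate on HFD.

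The acids were also compared with one another, since they differ by the length of the carbon chain and were given at one concentration and time. Over 6 pairs of acids, 3 on each diet, none of the 54 tests passed over all genes, and the smallest p adjusted over a member's 6 pairs was 0.277. That value belonged to Slc12a2 on HFD, at -0.19 ± 0.10 for propionate minus acetate and 0.18 ± 0.10 for butyrate minus propionate (SE). Aqp8 stood at -0.37 ± 0.28 and 0.39 ± 0.28 (SE) in the same pairs. The intervals excluded differences between acids above 1.14-fold for Car1, 1.17-fold for Car4 and 1.19-fold for Car2, and above 1.95-fold for Aqp8. These limits do not show that the acids act alike.

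Whether the response to an acid depended on the diet was tested directly, as the difference of the differences. None of the 27 tests passed (limma, smallest adjusted p 0.507, none with an unadjusted p under 0.05). Aqp8 responded to propionate by -0.51 ± 0.39 (SE) on HFD relative to LFD, with a 95% interval of -1.31 to 0.30. Slc12a2 and Slc9a2 stood at -0.22 ± 0.14 and 0.20 ± 0.12 (SE) for propionate, and all other values, those of Aqp8 under acetate and butyrate included, lay between -0.12 and 0.23.

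Diet itself gave the 2 smallest p-values. Car1 averaged 12.78 over the HFD groups and 12.86 over the LFD groups, a difference of -0.077 ± 0.032 (SE, 95% interval -0.14 to -0.011, adjusted p = 0.159 with limma), with 14 of 16 HFD arrays below the LFD mean of the same infusion. In this comparison 21.7% of all tested genes had an unadjusted p under 0.05. By infusion the difference in Car1 was -0.055 under acetate, -0.024 under propionate, -0.11 under butyrate and -0.12 under saline. Markers of posterior position (Hox genes, 6 tested of 7), which rise toward the rectum, ran against Car1 from array to array with an r of -0.563. This r did not pass (adjusted permutation p = 0.0702), and it was -0.266 on HFD arrays and -0.73 on LFD arrays. The Hox markers averaged 6.43 in acetate HFD and 6.33 in acetate LFD, 6.39 in propionate HFD and 6.44 in propionate LFD, 6.73 in butyrate HFD and 6.49 in butyrate LFD, and 6.66 in saline HFD and 6.29 in saline LFD. Their part in the difference was not tested.

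Slc9a2 under propionate was the second. It had 10.74, 10.82, 10.82 and 10.87 in propionate HFD, against 10.78, 10.61, 10.47 and 10.64 in propionate LFD, so the groups overlapped through 1 array of each. The difference was 0.18 ± 0.086 (SE, 95% interval 0.0075 to 0.36, adjusted p = 0.185 with limma), in a comparison where 24.4% of all tested genes had an unadjusted p under 0.05. Aqp8 differed by 0.20 ± 0.14 (SE) over all infusions, with 0.31 under acetate, -0.25 under propionate, 0.49 under butyrate and 0.26 under saline. Single arrays set much of this: without butyrate LFD 2 the Aqp8 difference was 0.097 under butyrate and 0.10 over all infusions, and without acetate LFD 1 it was 0.080 under acetate. The remaining members differed over all infusions by -0.12 (Slc9a3) to 0.075 (Slc26a3), with 95% limits of at most 1.25-fold, and Car4 and Slc12a2 by 0.018 and 0.028.

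**Figure D3:**
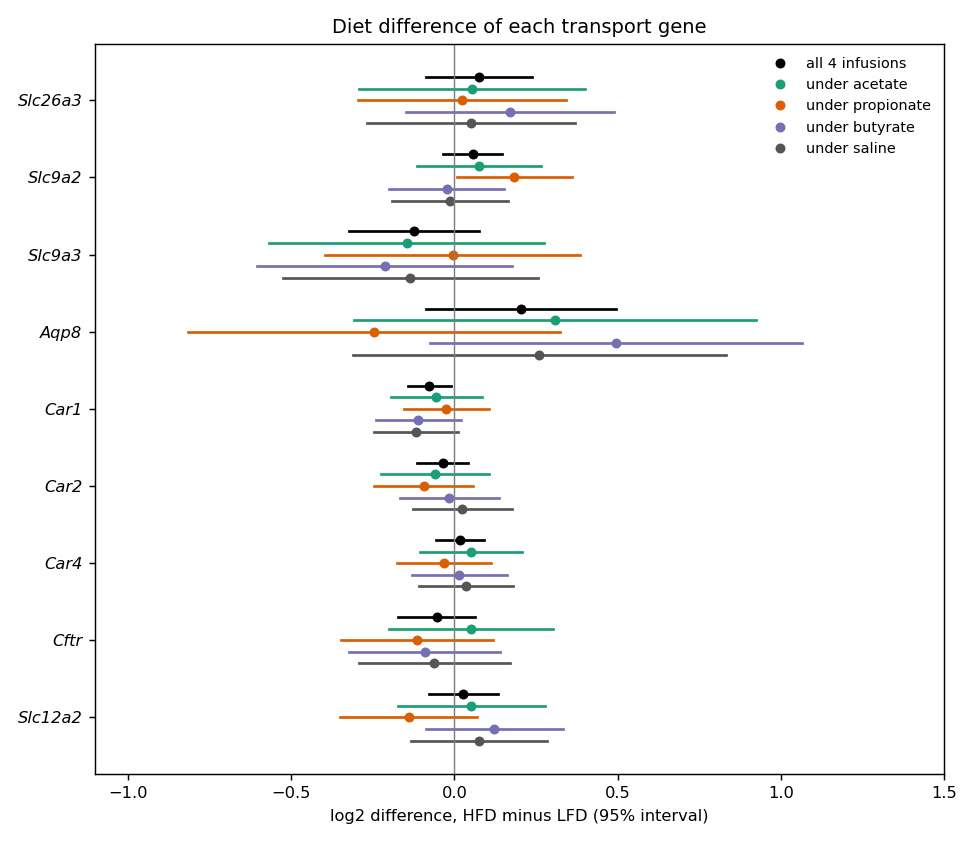
Log2 difference of HFD minus LFD (horizontal axis) for the 9 genes (rows), over all infusions in black and under each infusion in colour, with points for the difference and lines for its 95% interval from limma. The intervals of Car1 over all infusions and of Slc9a2 under propionate leave out 0, and all other intervals plotted include it.

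Within the groups, several of the 9 genes varied together from array to array. Each array's deviation from its group mean was correlated between members over 31 arrays, with 100000 permutations of arrays within groups, two-sided, and p-values adjusted over the 36 pairs. Of the 36 pairs, 9 passed, 8 with r above 0 and 1 below. The weakest of them had an absolute r of 0.474, which 10 of the 36 member pairs (27.8%) and 9.62% of all pairs of tested genes reached, so an r of that size is common in these arrays. The smallest p that these permutations can give is 1e-05.

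The apical exchanger and the water channel went together most closely. Slc26a3 and Aqp8 correlated with an r of 0.887 (rho 0.866, permutation p = 1e-05, the smallest possible, adjusted p = 0.00036). Without butyrate LFD 1 and 2, the arrays farthest from the median of Slc26a3, r was 0.846, and it was 0.843 on HFD arrays and 0.907 on LFD arrays. Of all tested genes, 0.0156% correlated at least as strongly with Slc26a3 and 0.0703% with Aqp8, whose median absolute r with all genes was 0.19. In these bulk scrapings, fewer cells of a type and less RNA per cell cannot be told apart.

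Car4, the membrane-anchored carbonic anhydrase, joined this pair. Its r was 0.803 with Aqp8 (rho 0.685, permutation, adjusted p = 0.00702) and 0.728 with Slc26a3 (rho 0.659, adjusted p = 0.00922). That with Slc26a3 was 0.116 on HFD arrays and 0.912 on LFD arrays, and that with Aqp8 was 0.395 on HFD and 0.894 on LFD. Without butyrate LFD 1 and 2 the r was 0.587 with Slc26a3 and 0.660 with Aqp8. The difference between the diets was not tested.

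Car2, a carbonic anhydrase of the cytosol, correlated with Slc26a3 at 0.529 (rho 0.574, adjusted permutation p = 0.00922), with Aqp8 at 0.521 (rho 0.550, adjusted p = 0.00922) and with Car4 at 0.493 (rho 0.537, adjusted p = 0.0413). Without the 2 arrays farthest from the median of the first gene the r values were 0.504, 0.531 and 0.478. Correlations of this size were common: 6.06% of all tested genes were as strongly correlated with Slc26a3 and 7.22% with Car2 for the first pair, 8.40% with Aqp8 and 7.82% with Car2 for the next, and 10.0% with Car2 and 7.08% with Car4 for the last. Car2 with Car4 passed in 20 of 41 settings. Car2 also moved with leukocyte markers, as given below. Once their mean was removed by regression, r fell to 0.360, 0.292 and 0.252 and none of the 3 pairs passed. With it removed, Slc26a3 with Aqp8 stood at 0.862, Aqp8 with Car4 at 0.747 and Slc26a3 with Car4 at 0.663. Each of these passed (adjusted permutation p = 0.00072, 0.0138 and 0.0311).

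Car1 went the other way. It correlated with Aqp8 at -0.577 (rho -0.651, adjusted permutation p = 0.00922), at -0.559 without butyrate LFD 1 and 2, at -0.478 on HFD and at -0.643 on LFD. With Slc26a3 it stood at -0.442 (adjusted p = 0.0836), which passed by rank only (rho -0.534, adjusted p = 0.0374). With Car4 it stood at -0.359 (adjusted p = 0.14). Genes as strongly correlated as Aqp8 with Car1 made up 5.67% of all tested genes for Aqp8 and 2.97% for Car1. With the mean of the posterior Hox markers removed by regression, the r of this pair was -0.415 (adjusted permutation p = 0.0411). With that of the leukocyte markers removed it was -0.453 (adjusted p = 0.0371).

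The secretory genes Cftr and Slc12a2 correlated at 0.694 (rho 0.653, adjusted permutation p = 0.00756), at 0.609 without propionate HFD 1 and saline LFD 1, at 0.606 on HFD and at 0.794 on LFD. As strongly correlated were 1.28% of all tested genes with Cftr and 1.63% with Slc12a2. Both genes ran with the mean of 6 enteroendocrine markers, Slc12a2 at 0.595 (rho 0.608, adjusted permutation p = 0.0904) and Cftr at 0.489 (rho 0.566, adjusted p = 0.175). Both ran against the colonic epithelium list, Slc12a2 at -0.607 and Cftr at -0.485 (adjusted p = 0.0522 and 0.157). Against posterior Hox genes they stood at -0.412 and -0.435 (adjusted p = 0.273 and 0.174). None of these passed the threshold. With the mean of the posterior Hox markers removed by regression, the r of Cftr with Slc12a2 was 0.627 (adjusted permutation p = 0.0338). With that of the leukocyte markers removed it was 0.694 (adjusted permutation p = 0.00918). The part of the enteroendocrine and colonic epithelium lists in the correlation was not tested. Cftr had r values of -0.011 with Slc26a3 and -0.065 with Aqp8. Slc12a2 had -0.33 with Slc26a3 and -0.43 with Car4, neither of which passed (adjusted p = 0.164 and 0.0595). The exchangers Slc9a2 and Slc9a3 correlated at 0.474 (rho 0.515, adjusted p = 0.00922), at 0.428 without acetate LFD 1 and saline LFD 4, and 10.2% of all tested genes were as strongly correlated with Slc9a2 and 2.38% with Slc9a3. With the mean of the posterior Hox markers removed, that r was 0.368 and did not pass (adjusted p = 0.12).

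**Figure D4:**
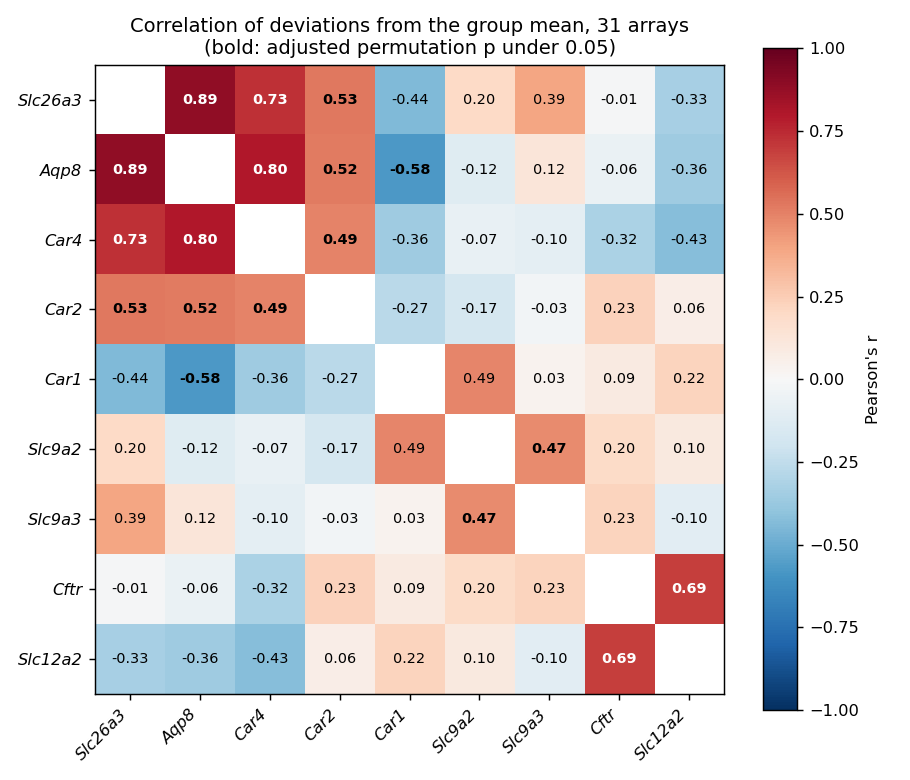
Pearson's r between the 9 genes over 31 arrays (both axes list the genes, colour and number give r), computed on deviations from the group mean, with bold for pairs past an adjusted permutation p of 0.05. Slc26a3, Aqp8, Car4 and Car2 form a block of positive values of 0.49 to 0.89, and Cftr and Slc12a2 form another pair at 0.69.

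**Figure D5:**
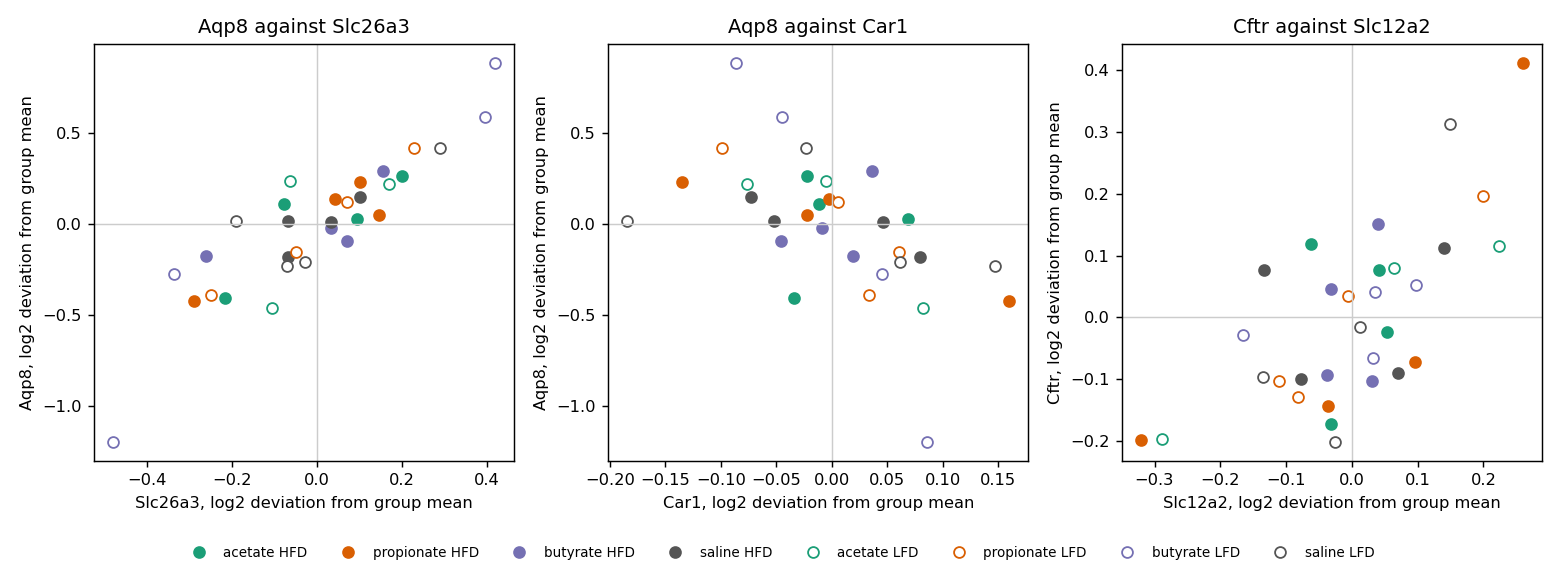
Deviation of each array's log2 level from its group mean for Aqp8 against Slc26a3, Aqp8 against Car1, and Cftr against Slc12a2, with 1 point per array, HFD filled and LFD open. Aqp8 runs up with Slc26a3 (r = 0.887) and down with Car1 (r = -0.577), with butyrate LFD arrays at both ends, and Cftr runs up with Slc12a2 (r = 0.694).

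Correlations with 10 lists of cell and position markers were measured in the same way, with p-values adjusted over the 90 pairs of member and list. The only pair that passed was Car2 with leukocytes, an r of 0.729 (rho 0.720, adjusted permutation p = 0.0027), 0.723 without acetate HFD 2 and propionate LFD 2, 0.812 on HFD and 0.635 on LFD. The leukocyte list rests on 6 tested markers. Their mean log2 level ran from 5.38 to 5.85 in acetate HFD, 5.30 to 5.82 in propionate HFD, 5.46 to 6.12 in butyrate HFD and 5.14 to 5.71 in saline HFD. On LFD it ran from 5.20 to 5.63 in acetate, 5.29 to 5.71 in propionate, 5.22 to 5.63 in butyrate and 5.27 to 5.39 in saline. Whether leukocytes account for the variation of Car2 was not tested.

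Several pairs missed the threshold. Slc12a2 stood at -0.607 with the colonic epithelium list (adjusted permutation p = 0.0522). Slc9a2 stood at -0.633 with posterior Hox genes and -0.612 with proliferating crypt cells, and Car1 at -0.563 with posterior Hox genes (adjusted p = 0.0702 each). Car1 stood at -0.479 with leukocytes (adjusted p = 0.0736), and Slc12a2 with enteroendocrine cells is given above. Car4 and Slc26a3 stood at 0.467 and 0.419 with leukocytes (adjusted permutation p = 0.153 and 0.175). For Aqp8, the leukocyte list gave 0.473 (adjusted p = 0.0904) and the posterior Hox list 0.495 (rho 0.354, adjusted p = 0.175). The latter was 0.275 without butyrate LFD 1 and 2, -0.123 on HFD and 0.685 on LFD. The adipocyte list gave -0.500 with Aqp8 (adjusted p = 0.295), and -0.221 without butyrate LFD 1 and 2. With Car1 the adipocyte list gave 0.476 (adjusted p = 0.174). Small-intestinal and smooth muscle markers, which set some arrays apart, had r values of -0.025 and -0.020 with Aqp8 and 0.087 and 0.026 with Slc26a3.

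By levels over the 31 arrays, the genes most like each member among 12264 tested genes with a descriptive name were as follows. Slc26a3 was closest to Phlpp2, a protein phosphatase (r = 0.92), then Aqp8 (0.87) and Slc15a1, the apical peptide transporter (0.84). Aqp8 was closest to the same Slc15a1 (0.90), Apobec1, the enzyme that edits apolipoprotein B messenger RNA (0.90), and Ggh, a folate hydrolase (0.89). For Car4 they were Ckmt1, a mitochondrial creatine kinase (0.82), Aqp8 (0.80) and Scnn1a, a subunit of the epithelial sodium channel (0.79). Members of the list were thus among the 3 nearest of both Slc26a3 and Car4.

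Car2 was closest to Slc26a2, a sulfate transporter of the same family as Slc26a3 (r = 0.81), to Xpr1, a phosphate exporter (0.77), and to Avl9 (0.77). Car1 was closest to Prap1 (0.83), Tmigd1 (0.81) and Paqr8, a membrane progestin receptor (0.75). For Slc9a2 they were Dsg2, a desmosomal cadherin (0.79), Prr15l (0.78) and Itprid2 (0.78). For Slc9a3 they were Mecom, a transcription factor (0.63), Fkbp5, a glucocorticoid-induced immunophilin (0.61), and Rps19-ps3, a pseudogene (0.59), the lowest values of the 9 members. Cftr was closest to Slc35b3, a sulfate donor transporter of the Golgi (0.80), Mrpl50 of the mitochondrial ribosome (0.77) and Mtpap, a mitochondrial poly(A) polymerase (0.72). Slc12a2 was closest to Aldh6a1, a mitochondrial aldehyde dehydrogenase (0.81), Marchf6, a ubiquitin ligase of the endoplasmic reticulum (0.76), and Glg1 of the Golgi (0.76). These r values are the largest of many, and carry no test.

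The wider transport machinery was described through 39 further genes, of which 32 were tested: other exchangers, carbonic anhydrases and aquaporins, chloride and potassium channels, the sodium pump and the guanylin pathway. Of 640 tests, 2 passed, both in the comparison of HFD with LFD under propionate and both lower. Car13, a carbonic anhydrase of the cytosol, had 9.09, 8.72, 8.23 and 8.81 in propionate HFD, against 9.26, 9.31, 9.44 and 9.19 in propionate LFD, with no overlap. The difference was -0.59 ± 0.15 (SE, limma adjusted p = 0.0217). Atp1b3, a beta subunit of the sodium pump, had 8.89, 8.64, 8.41 and 8.72 in propionate HFD, against 8.94, 8.97, 9.17 and 9.02 in propionate LFD. These groups did not overlap either, and the difference was -0.36 ± 0.10 (SE, limma adjusted p = 0.0377). Of the 12795 tested genes, 1122 were lower on HFD without overlap in this comparison and 668 were higher. Since 6.87% of all tested genes were called there, 2 of 32 is near the background. The response to propionate differed between the diets by -0.39 ± 0.21 for Car13 and -0.36 ± 0.15 for Atp1b3 (SE), neither past the threshold (limma adjusted p = 0.439 and 0.299). Both calls depend on single arrays, at adjusted p-values of 0.104 for Car13 and 0.156 for Atp1b3 without propionate HFD 3.

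Over all infusions no gene of the wider list passed between the diets. The 3 with the smallest p were Best2, a bicarbonate-permeable channel of colonic goblet cells, Car13 and Ano1, a calcium-activated chloride channel. Best2 averaged 8.62 over HFD and 8.13 over LFD, a difference of 0.49 ± 0.15 (SE, limma adjusted p = 0.0667, on that side in 14 of 16 HFD arrays). Car13 stood at -0.22 ± 0.075 (SE, adjusted p = 0.0836) and Ano1 at 0.34 ± 0.12 (SE, adjusted p = 0.0991, 16 of 16). Against saline, the smallest p of the list was that of Atp1b3 with propionate on HFD, -0.32 ± 0.10 (SE, limma adjusted p = 0.286). In the same comparison Slc26a2 stood at -0.21 ± 0.095 and Best2 at -0.62 ± 0.29 (SE, adjusted p = 0.399 and 0.415). With acetate on HFD, Car12, a membrane carbonic anhydrase, stood at 0.42 ± 0.16 (SE, adjusted p = 1), and with butyrate on HFD, Kcne3, a regulator of the basolateral potassium channel, at 0.26 ± 0.12 (SE, adjusted p = 1). On LFD the smallest p belonged to Car5b, a mitochondrial carbonic anhydrase, with acetate (-0.39 ± 0.20, SE), to Clca4a with propionate (-0.51 ± 0.24) and to Pdzk1, a scaffold of apical transporters, with butyrate (-0.43 ± 0.20), with limma adjusted p-values of 1, 0.972 and 1.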

How the data were processed

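RNA was measured in colon scrapings of 31 samples, 1 single-colour array each. The deposited values are log2 levels of 35556 probe sets that the authors made by RMA, per the submitters' processing notes. RMA is background correction, quantile normalization and a probe summary. The sources used here name neither its version nor the genome build behind the array. Quantile normalization sets all arrays to one distribution, so a shift of all genes cannot be seen.

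Of the probe sets, 21218 carry 1 gene symbol, and each of 18820 genes was read from the one with the highest mean. Testing was limited to the 12795 genes with an intensity of 20 or more on 3 or more arrays. One mean per group was fitted to all 31 arrays using limma 3.58.1 (R 4.3.3) and empirical Bayes moderation with an intensity trend. Adjusted p-values are Benjamini-Hochberg over all tested genes of each of 20 comparisons, with a threshold of 0.05. Correlations used deviations from group means and 100000 permutations within groups. The fit was checked on simulated data in which genes varied independently, so that check does not cover the correlation between genes in these arrays.

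The genes named are all 9 members, the genes of the wider list past the threshold or with its 3 smallest p in a comparison (of these, those of the main comparisons are given), and the 3 genes most alike to each member. Members and lists were chosen with earlier results of these data known. The alternatives were the filter, moderation, array weights, probe set choice, a repeated quantile normalization, the groups in the fit, the replicate block and each array left out. Those added after seeing the data were sets of arrays left out, Spearman's rho, levels in place of deviations, the replicate block for correlations, and removal of 2 marker lists. No batch is recorded in the labels or headers, so none could be tested. The number of arrays limits precision, and no depth applies.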

Additional observations from a re-analysis of the deposited data

Results flagged for a closer look

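Of 63 sets of 4 arrays (9 genes in 7 groups), 1 held an array apart from the others by Dixon's test at the 95% level, where 3.15 are expected by chance. Car2 was at a log2 level of 11.87 on propionate HFD 1, against 11.69, 11.69 and 11.70 on the other propionate HFD arrays. The gap divided by the range of the group was 0.957, above the critical value of 0.829. The same array was the highest of its group in leukocyte markers, at 5.82, against 5.30 to 5.44 on the other 3. It was also the highest in fibroblast (6.17) and proliferating crypt markers (7.32), and the lowest in colonic epithelium (11.02) and goblet markers (11.77). In small-intestinal (6.88) and adipocyte markers (4.70) it was the lowest as well. In smooth muscle, posterior Hox and enteroendocrine markers it lay between the other arrays of its group. The part of any of these in the level of Car2 was not tested.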

How the results depend on the processing

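None of the 180 tests of the 9 genes passed under any of the 43 settings, 31 of which left out 1 array. Of 5580 values with 1 array left out, 38 moved by over 1 SE and 234 changed sign, none of them called. In the other settings 7 of 2160 moved and 88 changed sign. Aqp8 with propionate minus saline on HFD ran from -0.63 to -0.41 (adjusted p 0.252 to 0.755), Car4 there from -0.15 to -0.11, Car1 between the diets from -0.092 to -0.043 (adjusted p 0.0985 to 0.415) and Slc9a2 between the diets under propionate from 0.13 to 0.26 (adjusted p 0.0872 to 0.442).

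The counts over all genes moved far more, and the cause was not tested. HFD minus LFD over all infusions (345 genes) gave 1788 with array weights. With arrays left out by a choice made after seeing the data, it gave 559 without the 4 high in small-intestinal transcripts, 115 without saline HFD 1 and 2, and 62 without butyrate LFD 1 and 2. Leaving out 1 array gave between 127 genes, without acetate LFD 3, and 1027, without saline LFD 3, and moved the count over 1.5 times for 19 of the 31 arrays. HFD minus LFD under propionate (879) gave 2652 with array weights. With 1 array left out it gave 11 (without propionate HFD 2) to 1731 (without propionate HFD 1), with 52 without propionate HFD 3, 33, 114 and 464 without propionate LFD 3, 4 and 1. Butyrate minus propionate on HFD (8) gave 53 at a mean level of at least 6, 2 without the trend, 2 with robust moderation, 937 with array weights, 2 with the mean of probe sets, 24 after a repeated quantile normalization, 2 without the 4 arrays and 1 without butyrate LFD 1 and 2. With 1 array left out it gave 0 (without propionate HFD 2 or 3, or butyrate HFD 1, 2 or 4) to 585 (without propionate HFD 1), and moved over 1.5 times for 28 of the 31 arrays. The other 17 comparisons (0) gave 11 at a mean level of at least 6, 1517 with array weights, 30 after the repeated normalization, 3 without the 4 arrays and 16 without saline HFD 1 and 2. With 1 array left out they gave 0 to 160, the highest without propionate HFD 4.

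Replicate numbers recur across groups, and the arrays were treated as unpaired. In deviations from the group mean, same-numbered arrays of different groups correlated at a median of 0.0402 (-0.497 to 0.472). Arrays of other numbers correlated at a median of -0.0123, and 12 of 31 arrays correlated best with their own number. These values do not settle whether the numbers stand for a shared factor. With the replicate block, butyrate minus propionate on HFD gave 64 genes, the other 17 comparisons 84, and correlated pairs of members numbered 10, without Aqp8 with Car2 (r = 0.44, adjusted p = 0.0572) and Car2 with Car4 (r = 0.50, adjusted p = 0.0542).

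Correlated pairs numbered 9, and 8 to 12 with 1 array left out. Over 41 settings, Slc26a3 with Aqp8, Slc26a3 with Car4, Aqp8 with Car4, Aqp8 with Car1 and Cftr with Slc12a2 passed in all 41. Slc26a3 with Car2 passed in 40, Aqp8 with Car2 and Slc9a2 with Slc9a3 in 39, and Car2 with Car4 in 20. The call of Car13 was lost in 4 settings and that of Atp1b3 in 9.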
